A study of Mus musculus with 2 samples.

Results

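The AP-2, TWIST, SNAIL and ZEB transcription factors were examined in the mandibular prominence of the mouse embryo, the facial swelling that forms the lower jaw. The set holds 10 genes, Tfap2a, Tfap2b, Tfap2c, Tfap2e, Twist1, Twist2, Snai1, Snai2, Zeb1 and Zeb2, out of 30723 gene names in the deposited tables, and was taken by gene name. Together they carried 31 listed transcripts. The series has 2 libraries, 1 per group, each from total RNA of the prominences of 10 pooled embryos on a mixed background named for CD1. The first group is called control, with no further genotype given. The second is Kif3a f/f ; Wnt1-Cre, in which the floxed gene of a motor subunit needed to build the primary cilium is deleted. Its Cre recombinase is active in neural crest cells and their descendants. It is not active in the surface epithelium, the myogenic cells, the endothelium or the blood of the same tissue. Both groups carry the stage label E11.5. The naming of the deposited tables gives the mutant an earlier day and another sequencing run, so stage and run cannot be told apart from genotype.

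Neural crest cells arise at the border of the neural plate, lose their epithelial junctions and migrate into the face, where they become mesenchyme. That passage is an epithelial to mesenchymal transition (EMT). AP-2 factors act at the neural plate border and later in both facial ectoderm and crest mesenchyme, SNAIL and ZEB factors are zinc finger repressors that bind E-boxes in genes of epithelial junctions such as Cdh1, and TWIST factors are basic helix-loop-helix proteins that pair with E proteins and are required in facial mesenchyme. Since both libraries come from whole tissue, fewer cells of a type and less RNA per cell cannot be told apart in any value given here.

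Twist1 and Twist2 show how alike members of one family can be, and the stretch below is given because reads of 1 gene could be assigned to the other if the genes were alike enough. The lines give the 180 coding bases at which they are most alike on the ungapped alignment through their longest shared run, both on the plus strand of GRCm38 and each within a coding exon, at chr12:33958298-33958477 for Twist1 and chr1:91801809-91801988 for Twist2. Capitals mark the bases that differ.
Twist1: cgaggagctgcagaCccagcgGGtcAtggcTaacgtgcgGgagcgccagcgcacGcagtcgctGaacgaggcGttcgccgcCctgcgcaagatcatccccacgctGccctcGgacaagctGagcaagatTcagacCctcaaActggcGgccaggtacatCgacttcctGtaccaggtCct
Twist2: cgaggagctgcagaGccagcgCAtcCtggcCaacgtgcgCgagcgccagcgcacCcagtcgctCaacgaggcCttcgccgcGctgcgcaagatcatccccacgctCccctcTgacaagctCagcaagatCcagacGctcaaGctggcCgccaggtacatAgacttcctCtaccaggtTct
The stretches were identical at 160 of 180 bases. Over the whole aligned coding part, 332 of 480 bases were identical, and the longest exact run was 23 bases. Over the 9 within-family pairs, the longest exact run shared by any of their GENCODE transcripts was 13 to 29 bases, the longest in Tfap2a and Tfap2b.

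The next lines show the 250 bases before the RefSeq start site (GRCm38.p6) of Twist1, Twist2 and Snai1, the 3 factors over the filter on low values that have 1 deposited transcript and a RefSeq window, so that their start regions can be compared. All 3 lie on the plus strand, at chr12:33957421-33957670, chr1:91801211-91801460 and chr2:167537945-167538194. Capitals mark matches to CACCTG (or CAGGTG on the other strand), the E-box form that SNAIL and ZEB proteins bind, and to GCCNNNGGC, the palindrome bound by AP-2 proteins.
Twist1: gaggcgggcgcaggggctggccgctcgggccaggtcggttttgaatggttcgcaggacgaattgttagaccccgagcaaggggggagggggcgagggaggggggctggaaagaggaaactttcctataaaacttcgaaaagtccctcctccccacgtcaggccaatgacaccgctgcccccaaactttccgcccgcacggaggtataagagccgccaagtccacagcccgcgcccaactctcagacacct
Twist2: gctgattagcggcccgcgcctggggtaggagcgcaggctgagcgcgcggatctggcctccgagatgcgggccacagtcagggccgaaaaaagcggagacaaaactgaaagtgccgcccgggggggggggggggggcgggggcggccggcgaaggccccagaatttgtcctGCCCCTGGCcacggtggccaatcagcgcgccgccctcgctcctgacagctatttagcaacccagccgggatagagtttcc
Snai1: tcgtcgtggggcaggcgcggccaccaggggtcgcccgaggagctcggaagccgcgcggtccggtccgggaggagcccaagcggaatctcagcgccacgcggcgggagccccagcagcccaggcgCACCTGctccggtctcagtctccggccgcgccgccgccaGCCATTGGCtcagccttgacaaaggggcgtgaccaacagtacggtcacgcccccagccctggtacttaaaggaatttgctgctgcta
The Snai1 window held 1 E-box of this form, beginning 126 bases before the start, and 1 AP-2 palindrome, 87 bases before it. The Twist2 window held 1 AP-2 palindrome, 80 bases before the start, and the Twist1 window neither motif. RefSeq gave 11 such windows for 7 of the 10 factors (Tfap2a, Tfap2b, Tfap2e, Twist1, Twist2, Snai1 and Zeb2). The AP-2 palindrome was in 4 of them, of which 2 are overlapping Zeb2 windows with the same match, against 13.7% of all 32851 windows of this length. The E-box form CACCTG was in 1 of 11 against 17.2% of all windows. Any E-box (CANNTG, which includes that form) was in 3 of 11 against 66.2%, and the GLI motif TGGGTGGTC or GACCACCCA in 0 of 11 against 0.225%. These matches describe the letters of short windows, not sites.

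Values are FPKM, the Cufflinks unit of fragments per length of transcript and per number of mapped fragments, summed over the transcripts of a gene. FPKM is scaled to length, so levels of different genes can be ordered. Approximated from the deposited coverage, the control library held about 24700000 fragments and the mutant library 24500000. The log2 ratio is mutant over control after 1 is added to each FPKM, which understates differences at low levels, and a gene counts as 2-fold different where it reaches 1 or -1 on this scale. Intervals are 95% exact binomial (Clopper-Pearson) intervals of the FPKM ratio that cover counting error only. With 1 library per group there is no test between the groups and no p-value. Kif3a, the deleted gene, stood at 11.46 FPKM in control and 5.39 in mutant tissue, a ratio of 0.471 (0.431 to 0.514). The filter was a mean FPKM of 1, which 12259 genes reached. Their median log2 ratio was -0.13, and across these genes, which are not replicates, longer transcripts had higher ratios (Spearman correlation 0.407). Positions are in GRCm38. Directions are given relative to the median gene, and values without the length trend are given for the 9 factors and for some of the other genes.

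Of the 10 factors, 9 reached the filter of a mean FPKM of 1. Twist1 and Twist2 were the most abundant in both libraries, Snai1 and Snai2 came next, and the AP-2 and ZEB factors were lower. Relative to the median gene, Twist1, Twist2, Snai1, Snai2, Tfap2c and Zeb2 were lower in the mutant library and Tfap2a, Tfap2b and Zeb1 higher. Scaling between libraries multiplies all values of a library by 1 number, so it can hardly move a gene across the median gene. The split stayed the same under each scaling run for that reason. The log2 ratios of Twist1, Snai1, Snai2, Tfap2c and Zeb2 themselves turned positive when each library was scaled to the same FPKM sum. The differences were small: 0 of 9 factors were at least 2-fold lower, against 1.36% of all genes compared, and 0 of 9 at least 2-fold higher, against 0.767%. The median log2 ratio of the 9 was -0.34, or -0.21 relative to the median gene. A log2 ratio below 0 was found for 6 of 9 factors, close to the 67.9% of all genes. Counted against the median gene, 6 of 9 lay more than 0.1 below it (34.9% of all genes) and 3 of 9 more than 0.1 above it (36.1%).

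**Figure D1:**
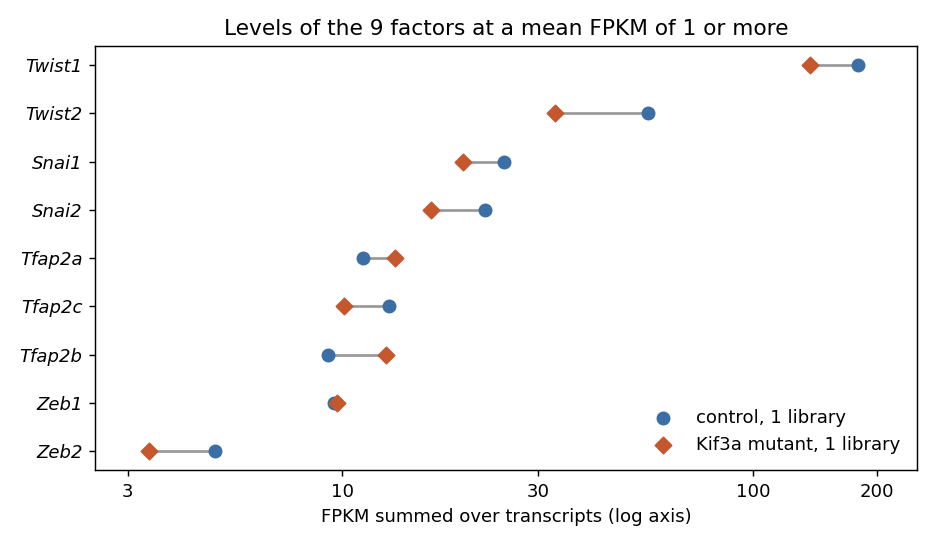
FPKM summed over transcripts (log axis) in the control library (circles) and the Kif3a mutant library (diamonds) for the 9 factors over the filter, ordered by mean level. Twist1 stands highest at 181 and 137 FPKM and Zeb2 lowest at 4.90 and 3.39, and Tfap2a, Tfap2b and Zeb1 are the 3 with the mutant value on the right.

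The TWIST genes were the most abundant and were lower in the mutant library. Twist1, which is required for survival and patterning of facial mesenchyme, lies on chromosome 12 from 33957671 to 33959831 and has 1 listed transcript of 1630 bases. It stood at 181 FPKM in control and 137 in mutant tissue, on about 7476 and 6075 fragments. Its mutant level was 0.760 of the control level (0.735 to 0.787), a log2 ratio of -0.39. By level it ranked 396 among the compared genes in control and 449 in mutant tissue.

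Twist2, a paralog with a role in dermis and facial skin, lies on chromosome 1 from 91801477 to 91848027 with 1 listed transcript of 1312 bases. It stood at 55.4 FPKM in control and 33.0 in mutant tissue, on about 1840 and 1179 fragments. This was the largest difference of the set, 0.596 of the control level (0.553 to 0.641) and a log2 ratio of -0.73. Its log2 ratio lay at percentile 3.01 of all genes compared, and 4.61% of genes had an absolute log2 ratio as large or larger. With the length trend removed Twist2 had -0.48 and Twist1 -0.17. A clone transcript with the coordinates of an annotated antisense gene, AK028549, overlaps the start of Twist2 and stood at 1.32 and 0.769 FPKM. Whether the libraries kept strand is not stated, so reads of the pair cannot be told apart.

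The ratio of the paralogs inside a library does not depend on the scaling between libraries. Twist1 stood at 3.26 times the FPKM of Twist2 in control and 4.16 times in mutant tissue. The ratio was thus 1.28 times as large in mutant tissue (1.18 to 1.39), and Twist2 made up 23.5% of the TWIST FPKM in control and 19.4% in mutant tissue.

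The SNAIL genes were lower by similar amounts. Snai1, which drives the transition in the early embryo, lies on chromosome 2 from 167538227 to 167542811 and stood at 24.7 FPKM in control and 19.6 in mutant tissue. Its ratio was 0.795 (0.724 to 0.872) and its log2 ratio -0.32. Snai2, a classical marker of emigrating crest, lies on chromosome 16 from 14705859 to 14709382 and stood at 22.2 and 16.5 FPKM. Its ratio was 0.740 (0.677 to 0.807) and its log2 ratio -0.41. Each rests on 1 listed transcript and about 841 to 1140 fragments per library.

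The pair kept nearly the same proportion. Snai1 stood at 1.11 times the FPKM of Snai2 in control and 1.19 times in mutant tissue, a change of 1.07 (0.945 to 1.22), and this interval spans 1. Without the length trend the log2 ratios of Snai1 and Snai2 were -0.09 and -0.22. Genes of the length of Snai1 had a fitted log2 ratio of -0.23.

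The AP-2 genes did not share a direction. Tfap2a, mutated in a human branchial arch and eye syndrome, lies on the minus strand of chromosome 13 from 40715675 to 40734920 and stood at 11.2 FPKM in control and 13.4 in mutant tissue. Its ratio was 1.19 (1.09 to 1.31) and its log2 ratio 0.24. Tfap2b, mutated in a syndrome of the face, heart duct and hands, lies on chromosome 1 from 19208914 to 19238734 and stood at 9.22 and 12.8 FPKM. This was the largest positive difference of the set, a ratio of 1.38 (1.28 to 1.49) and a log2 ratio of 0.43, at percentile 94.96 of all genes compared. Without the length trend Tfap2a and Tfap2b both had 0.38.

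Tfap2c, which acts in the early ectoderm and neural fold and in the germ line, went the other way. It lies on chromosome 2 from 172549593 to 172558621 and stood at 13.0 FPKM in control and 10.1 in mutant tissue, a ratio of 0.776 (0.704 to 0.855) and a log2 ratio of -0.34. Tfap2c was the most abundant AP-2 gene in the control, with 38.8% of the family's FPKM, and the third in mutant tissue, with 27.8%. Tfap2b took 27.6% and 35.1% and Tfap2a 33.6% and 37.0%. Tfap2e, on chromosome 4 from 126716003 to 126736269 and known from the olfactory system, was listed at 0 in control and at 0.0207 FPKM, about 1 fragment, in mutant tissue. No ratio was formed.

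Tfap2b stood at 0.709 times the FPKM of Tfap2c in control and 1.26 times in mutant tissue, a change of 1.78 (1.58 to 2.02). The ratio of Tfap2a to Tfap2c went from 0.865 to 1.33, a change of 1.54 (1.34 to 1.77). That of Tfap2a to Tfap2b went from 1.22 to 1.05, a change of 0.863 (0.763 to 0.976). Of the 6 within-family pairs compared, this ratio changed most for Tfap2b and Tfap2c, but without the length trend the log2 ratios of Zeb1 and Zeb2, -0.03 and -0.68, lay farther apart than those of Tfap2b and Tfap2c, 0.38 and -0.20. The sum of the 4 AP-2 genes stood at 33.5 and 36.3 FPKM.

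AP-2 factors are made in ectoderm as well as in crest mesenchyme. Most markers of the ectoderm lay above the median gene, as Tfap2a and Tfap2b did, while Tfap2c lay below it at -0.21. All 12 listed markers of facial ectoderm and oral epithelium passed the filter, 9 of them above the median gene, with a summed level of 204 FPKM in control and 228 in mutant tissue and a median log2 ratio of 0.31. The simple-epithelium keratin genes Krt8 and Krt18 had log2 ratios of 0.41 and 0.48. Of the keratin genes of basal and stratifying epithelium, Krt5 and Krt15 went the other way. Krt5 stood at 15.2 and 8.81 FPKM and Krt15 at 15.2 and 6.39. Krt15 was the only one of the 12 at least 2-fold lower (1.36% of all genes), and 0 were at least 2-fold higher (0.767%). Krt14, at 15.6 and 13.1 FPKM, had -0.10 relative to the median gene and 0.03 without the length trend. Trp63, on the same list, stood at 14.4 and 19.4 FPKM. None of the 12 was listed at 0, and the part of the epithelium in the AP-2 values was not tested. Of the 8 markers of crest mesenchyme all passed the filter and 5 lay above the median gene. The 7 other than Twist1 summed to 416 FPKM in control and 441 in mutant tissue, a median log2 ratio of 0.07, with 5 of 7 above the median gene and Pdgfra and Dlx5 less than 0.1 below it. Twist1 had the lowest log2 ratio of the 8, but without the length trend Pdgfra was lower, at -0.27 against -0.17, and Dlx5 had 0.07. Among markers of other cells, the erythroid markers summed to 22169 and 5652 FPKM and those of muscle precursors to 36.7 and 9.12. All 7 listed erythroid genes in the tables and all 6 muscle genes over the filter lay below the median gene, while the 8 neuron markers summed to 20.6 and 20.1 FPKM, with Tubb3 at 8.92 and 6.29 and Isl1 at 5.53 and 9.62. Of the 4 neuron markers over the filter 2 lay above the median gene, Isl1 and Dcx. Without the length trend the log2 ratio of Dcx was 0.003 and that of Isl1 0.86. Like Tubb3, Nefl was lower in the mutant library, at 1.58 and 0.742 FPKM, and so was Nefm, at 1.40 and 0.268. Stmn2 and Elavl4 were also lower, while Dcx and the barely detected Elavl3 were higher, as Isl1 was. The part of these cells in the values of the 10 factors was not tested.

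**Figure D2:**
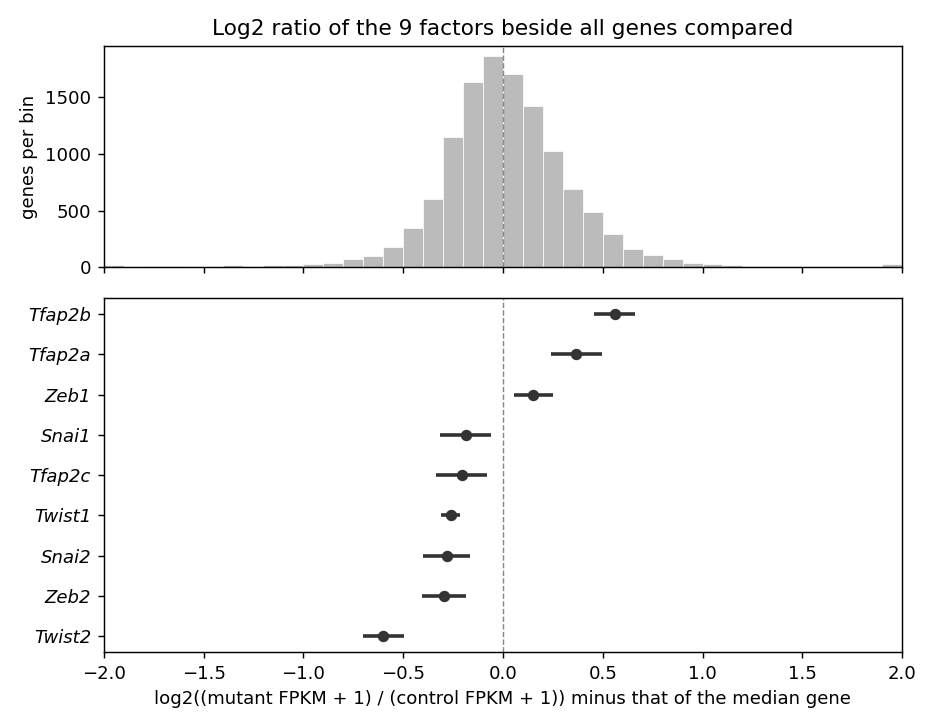
Log2 ratio minus that of the median gene. The upper panel counts the 12259 genes compared in bins of 0.1, with values beyond 2 placed in the end bins, and the lower panel shows the 9 factors with 95% counting intervals. Tfap2b (0.56), Tfap2a (0.37) and Zeb1 (0.15) lie right of the median gene and the other 6 left of it, Twist2 farthest at -0.60.

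The ZEB genes differed from each other. Zeb1, a repressor of epithelial genes, lies on chromosome 18 from 5591860 to 5775468 and stood at 9.52 FPKM in control and 9.68 in mutant tissue. Its ratio of 1.02 (0.944 to 1.09) spans equality. Relative to the median gene its log2 ratio was 0.15, and this turned to -0.03 once the length trend was removed. Zeb2, mutated in Mowat-Wilson syndrome and needed for crest formation, lies on the minus strand of chromosome 2 from 44983634 to 45117395 and stood at 4.90 and 3.39 FPKM, on about 926 and 703 fragments. Its ratio was 0.692 (0.627 to 0.764) and its log2 ratio -0.43. Its most abundant transcript in control has 8743 bases, a length at which the fitted log2 ratio was 0.25, and without the length trend Zeb2 had -0.68, the lowest value of the set on that scale.

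Zeb1 stood at 1.95 times the FPKM of Zeb2 in control and 2.86 times in mutant tissue, a change of 1.47 (1.30 to 1.66). Zeb2 is also made in macrophages, glia and other non-mesenchymal cells, and the summed markers of some of these cells were lower. The 8 macrophage markers summed to 17.1 and 9.61 FPKM and the 8 Schwann and glial markers to 15.2 and 9.38. The 8 endothelial markers summed to 73.4 and 50.5. Of these lists 5, 5 and 8 members passed the filter, 4, 3 and 7 of them below the median gene. The neuron markers, given above, were nearly level in sum but did not move alike. Isl1, Dcx and Elavl3 were higher in the mutant library and Tubb3, Nefl, Nefm, Stmn2 and Elavl4 lower. None of the markers of these 4 cell types was listed at 0 in both libraries, and the part of these cells in the Zeb2 value was not tested.

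Of the 9 factors over the filter, 5 have several listed transcripts, and their mix was compared as the share of each transcript in the FPKM of its gene. Transcripts of 1 gene overlap, so Cufflinks divides their reads by estimate. The intervals of single transcripts leave out the error of that division. The most abundant transcript differed between the libraries for 1 of the 5, Zeb2, against 9.4% of the 7954 genes with 2 or more transcripts. Among the 1526 such genes with 5 or more transcripts, a median of 14.02% of the mix moved between the libraries, and the 95th percentile was 41.6%. Zeb2 moved by 57.5%, Tfap2a by 29.6%, Tfap2c by 12.7%, Zeb1 by 10.2% and Tfap2b by 5.91%. Zeb2 thus lay beyond the 95th percentile of genes with many transcripts and Tfap2a between the median and the 90th percentile of 34.9%. The Zeb2 value includes an exchange between transcripts of 8743 and 8773 bases that share their 3′ end, given below.

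In Zeb2 the largest changes were in a pair of transcripts that share their 3′ end. The one of 8743 bases, starting at 45110244, held 54.9% of the Zeb2 FPKM in control and 2.46% in mutant tissue, at 2.69 and 0.0835 FPKM. The one of 8773 bases, starting at 45110464, held 0.0146% and 39.6%, at 0.000713 and 1.34 FPKM. The 3 transcripts that start within 489 bases, from 45110244 to 45110733, together stood at 2.84 FPKM in control and 1.51 in mutant tissue, a ratio of 0.530 (0.463 to 0.607). Together they held 58.0% of the Zeb2 FPKM in control and 44.4% in mutant tissue, a smaller change than in the single transcripts. The transcript of 9113 bases, which starts farther upstream at 45113279, stood at 1.36 and 1.39 FPKM, a ratio of 1.02 (0.875 to 1.20). Most of the lower Zeb2 sum was thus assigned to the transcripts of these downstream starts. Of the remaining transcripts, that of 608 bases stood at 0.625 and 0.284 FPKM on 10 and 5 fragments, that of 2958 bases at 0.0766 and 0.0768, that of 1279 bases at 0 and 0.135, and that of 2620 bases was listed at 0 in both. The grouping of the 3 starts was chosen after the values were seen. The annotated antisense gene Zeb2os, from 45110707 to 45114087, lies across the Zeb2 starts at 45110733, 45113092 and 45113279. The starts at 45110244 and 45110464 lie outside it. Gm13476, a deposited transcript within Zeb2os, stood at 0.794 and 0.400 FPKM.

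In Tfap2a the transcript of 2863 bases, which starts at 40733823, stood at 4.19 FPKM in control and 7.19 in mutant tissue, a ratio of 1.72 (1.49 to 1.98). Its share was 37.2% and 53.6%. The transcript of 3114 bases from 40730443 stood at 3.56 and 4.41 FPKM and kept about its share, at 31.6% and 32.9%. The one of 2281 bases from 40725187 stood at 2.38 and 0.212 FPKM, but its control estimate carried the status LOWDATA, with which Cufflinks marks a locus too complex or too shallowly sequenced. The transcript of 1006 bases was at 1.12 FPKM in control and effectively at 0 in mutant tissue, and those of 2872 and 532 bases were effectively at 0 in control and at 0.929 and 0.679 in mutant tissue. The farthest upstream start, at 40734920, and the transcript of 1132 bases had effectively no signal in either library. The largest gain was thus assigned to the transcript from 40733823. A clone transcript with the coordinates of an annotated antisense gene, AK017409, stood at 0.512 and 0.563 FPKM.

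In Tfap2c most of the lower sum was assigned to 1 of its 2 transcripts, which share their 3′ end. That of 2837 bases, from the upstream start at 172549593, stood at 7.01 and 6.72 FPKM, a ratio of 0.958 (0.845 to 1.09). That of 2778 bases, from 172550991, stood at 5.99 and 3.37 FPKM, a ratio of 0.562 (0.479 to 0.659). With the upstream transcript alone Tfap2c had a log2 ratio of -0.05 and lay above the median gene.

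In Tfap2b the 3 main transcripts had higher values in the mutant library, and for that of 6021 bases the interval of the ratio spans 1 (1.18, 0.965 to 1.45). That of 5710 bases stood at 4.77 and 6.42 FPKM, that of 3069 bases at 3.05 and 4.24, and that of 6021 bases at 1.13 and 1.34. Their shares were nearly kept, at 51.7% and 50.3%, 33.1% and 33.3%, and 12.3% and 10.5%. The minor transcripts from 19212054 stood at 0.269 and 0.0195 FPKM for 6056 bases and at effectively 0 and 0.730 for 862 bases. In Zeb1 the transcript of 5806 bases stood at 9.52 and 8.69 FPKM, a ratio of 0.912 (0.846 to 0.983), and that of 2747 bases at effectively 0 and 0.989.

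**Figure D3:**
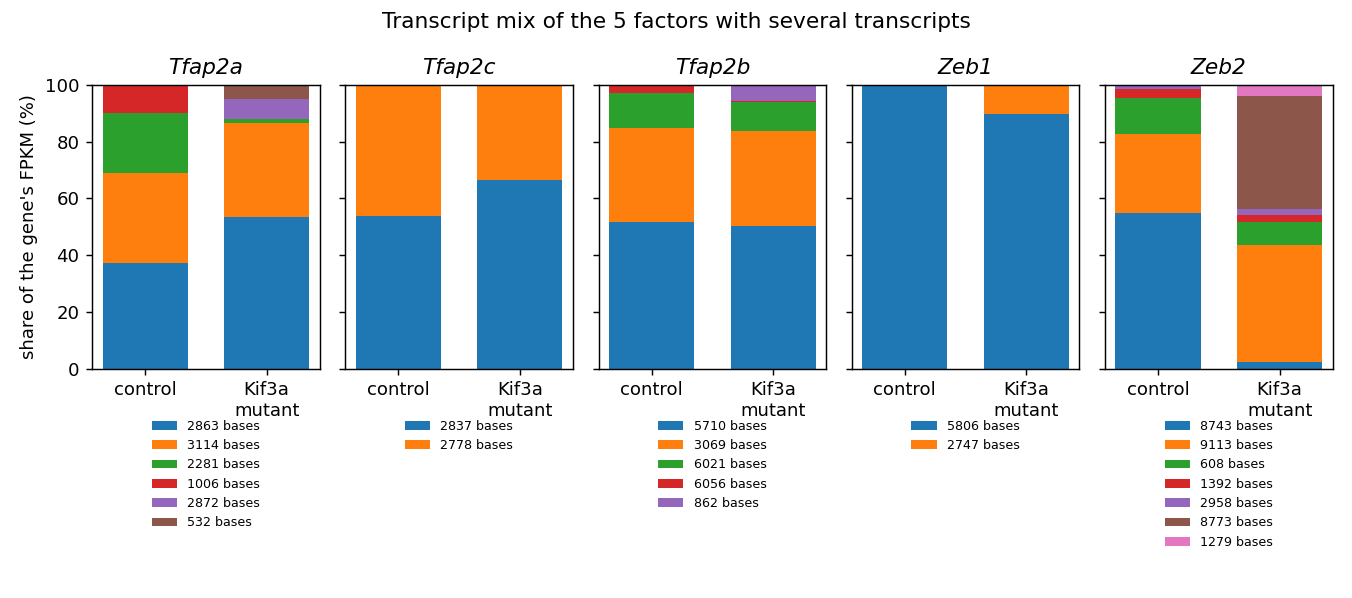
Share of each transcript in the FPKM of its gene (percent), in the control and Kif3a mutant libraries, for the 5 factors with several transcripts. Colours within a panel stand for transcripts, named by length, and transcripts under 1% in both libraries are left out. The Tfap2b bars are nearly alike, while in Zeb2 the transcript of 8743 bases falls from 54.9% to 2.46% and that of 8773 bases takes 39.6%. The 3 Zeb2 transcripts of neighbouring starts, these among them, together hold 58.0% in control and 44.4% in mutant tissue.

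Genes that work with or downstream of these factors were taken from fixed lists. Of 30 partner and cofactor genes over the filter, 1 was at least 2-fold lower (1.36% of all genes) and 0 at least 2-fold higher (0.767%), with a median log2 ratio of -0.15, beside -0.13 for all genes. That 1 was Cited4, whose protein belongs to a family of AP-2 coactivators, at 15.1 FPKM in control and 5.24 in mutant tissue, a ratio of 0.346 (0.291 to 0.411). Cited1, of the same family, stood at 83.7 and 46.3 FPKM, a ratio of 0.553 (0.513 to 0.596). Hand2, a partner of TWIST1, stood at 89.9 and 67.4 FPKM, and the most abundant of the list, Id3, which binds E proteins in place of TWIST, at 181 and 153. The log2 ratio of Id3 was -0.24, and 0.04 without the length trend.

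Of 25 other neural crest regulators in the tables, 18 passed the filter, with a median log2 ratio of -0.06. Of these 18, 0 were at least 2-fold lower (1.36% of all genes) and 0 at least 2-fold higher (0.767%). The most abundant was Lmo4, at 123 and 107 FPKM. Its log2 ratio was -0.20, and 0.02 without the length trend. Ngfr, a surface marker of crest and glia, had a log2 ratio of -0.71, Gbx2 0.59 and Ets1, which promotes delamination, -0.49. Sox10 and Foxd3, markers of early and migrating crest, did not pass the filter, at 1.08 and 0.676 FPKM in control and 0.415 and 0.174 in mutant tissue. Sox10 and Foxd3, which are also in the list of Schwann and glial markers, were thus low beside the markers of crest mesenchyme. Other genes of delaminating or emigrating crest were not: Ets1 stood at 14.1 FPKM and Snai2 at 22.2 in control.

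The medians of the mesenchymal and epithelial sides of EMT differed in sign. Of 27 mesenchymal genes over the filter, 19 lay below the median gene, 2 were at least 2-fold lower (1.36% of all genes) and 0 at least 2-fold higher (0.767%), with a median log2 ratio of -0.37 (-0.32 without the length trend). Postn, a matrix protein, stood at 26.3 and 7.69 FPKM, Acta2, smooth muscle actin, at 10.8 and 3.09, and Tnc, a matrix glycoprotein, at 4.41 and 1.82. The most abundant, the homeobox gene Prrx1, went the other way, at 143 and 165 FPKM. Beside this list, the markers of muscle precursors went from 36.7 to 9.12 FPKM in sum and those of endothelium from 73.4 to 50.5, while the 7 crest mesenchyme markers other than Twist1 went from 416 to 441, and the part of these cells in the list was not tested. Of 26 epithelial genes over the filter, 22 lay above the median gene, with a median of 0.28 (0.35 without the length trend). Of these 26, 0 were at least 2-fold lower (1.36% of all genes) and 0 at least 2-fold higher (0.767%). The list shares Epcam, Cdh1, Krt8, Krt18, Esrp1, Grhl3 and Cldn6 with the markers of facial ectoderm, so the 2 lists are not independent. Cldn6, a tight junction protein and the most abundant of the epithelial list, stood at 31.0 and 39.6 FPKM. The laminin chain gene Lama5 stood at 5.37 and 11.54 FPKM, with a log2 ratio of 0.98 that was 0.58 without the length trend. The desmosome gene Dsp stood at 7.97 and 12.7 FPKM, with a log2 ratio of 0.61 that was 0.31 without the length trend, and the splicing regulator Esrp2 at 3.69 and 5.93. Cdh1, repressed by SNAIL and ZEB proteins, stood at 13.2 and 16.1 FPKM, a ratio of 1.22 (1.14 to 1.31). Epcam stood at 24.0 and 25.1 FPKM, a ratio of 1.05 (0.968 to 1.13), and Grhl3 at 6.68 and 6.31. The part of epithelial cells in the values of this list was not tested.

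The upstream signals of EMT showed no common direction. Of 18 over the filter 12 lay above and 6 below the median gene, and their median log2 ratio was -0.03. Of the 18, 0 were at least 2-fold lower (1.36% of all genes) and 0 at least 2-fold higher (0.767%). Tgfb3, a ligand of the palate and face, stood at 5.59 and 2.89 FPKM. The stage-related RNA-binding genes Lin28b and Lin28a stood at 7.50 and 14.2 FPKM and at 2.66 and 5.28, and Hmga2, the most abundant, at 266 and 254. Lin28a and Lin28b are known to decline with embryonic age. The mutant table is named for the earlier day, so stage and genotype cannot be told apart here either.

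**Figure D4:**
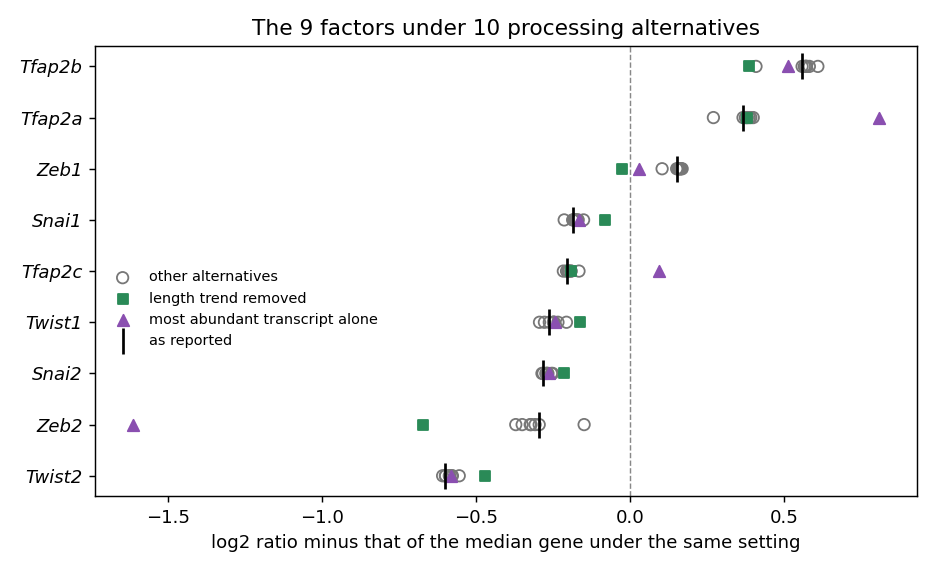
Log2 ratio of the 9 factors minus that of the median gene, as reported (vertical ticks) and under 10 alternatives of scaling, pseudocount, filter, measure and summary; the setting without a filter is left out because its median gene is at 0. Tfap2a and Tfap2b stay right of the median gene and Twist1, Twist2, Snai1, Snai2 and Zeb2 left of it in all settings drawn that keep them (Zeb2 is dropped by the filter of 5 FPKM), while Zeb1 crosses without the length trend (-0.03) and Tfap2c with its most abundant transcript alone. The scaling alternatives multiply a whole library, so they can hardly move a factor across the median gene.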

How the data were processed

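RNA-seq was compared between 1 control and 1 Kif3a mutant library. The authors deposited FPKM and coverage signal per transcript, per the file headers, estimated with Cufflinks per the naming of the tables. Per the submitters' processing notes the build was mm9. Not given in the sources used here were aligner, versions and strandedness. Of 45348 transcripts compared with GENCODE (GRCm38), the deposited start plus 1 matched a start of the same gene in 52.0% and the start as deposited in 4.65%, so coordinates are GRCm38 with 1 added to the start. In each table, 65 lines whose status field held no Cufflinks status were left out.

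FPKM was summed per gene. Fragments were approximated as coverage times length over 156 (control) or 153 (mutant) bases per fragment, the median of coverage times length in genes with 1 transcript over 1500 bases where it lay between 80 and 220 bases, taken as 1 fragment. The length trend was a lowess (statsmodels 0.14.6, span 0.3) on the length of the most abundant transcript. Arithmetic was tested on simulated data. There was no test, since no group has replicates. Named beside the 10 factors are each list's most abundant member and its 3 largest absolute log2 ratios, plus Kif3a. Sox10, Foxd3, Cdh1 and the other cell markers were named outside this rule, after their values were seen. Members and lists were chosen with earlier results of these data known.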

Additional observations from a re-analysis of the deposited data

How the results depend on the processing

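Under 11 alternatives, the median log2 ratio of the listed factors, -0.34 as reported, was -0.21 after centring on the median gene, 0.21 under TPM-like scaling, -0.092 under TPM-like scaling without transcripts under 200 bases, and -0.17 with the length trend removed. Under TPM-like scaling the median of all genes was 0.40, and the log2 ratios of Twist1 (0.19), Snai1 (0.25), Snai2 (0.15), Tfap2c (0.21) and Zeb2 (0.05) turned positive. Below the median gene lay 6 of 9 factors, as reported, since scaling a whole library can hardly change the side of a gene. The count of factors at least 2-fold lower was 0, and 1 with the most abundant transcript alone. That 1 was Zeb2, at -1.77 on its transcript of 8743 bases. Its transcript of 8773 bases, with the same 3′ end, stood at 0.000713 FPKM in control and 1.34 in mutant tissue. That of 9113 bases had a log2 ratio of 0.02, so the count depends on which transcript is taken. The cause was not tested. Of 98 values of single factors under an alternative, 46 stayed within their counting interval and 52 moved beyond it. Another filter leaves the log2 ratio of a factor as it was, so those values were bound to stay. Centring shifts all values alike, so the tally is no measure of stability. Relative to the median gene, Zeb1 changed side with the length trend removed and Tfap2c with the most abundant transcript alone. The other 7 factors kept their side under every alternative that kept them, but the scaling alternatives could hardly change it. No paired analysis was possible because each group has 1 library, and for the same reason no library could be left out. Depth limits Tfap2e, at about 1 fragment, and the minor transcripts.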
